A study of Mus musculus with 18 samples.

Results

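The chemokine Ppbp and the 6 CXC chemokine genes that lie beside it on mouse chromosome 5 were examined in mIMCD-3 cells, which derive from the inner medullary collecting duct of mouse kidney. The 7 genes were chosen by name and position, and Ppbp was selected on its array values, as one of the transcripts that changed most in these experiments. They were Cxcl5, Ppbp, Pf4, Cxcl3, Cxcl15, Cxcl1 and Cxcl2, in their order along the chromosome. Each was measured by 1 transcript cluster carrying its symbol alone, so 7 of the 35556 clusters on the array, and of the 23410 with a gene symbol, belong to this group. Because Ppbp was picked for its response, its values are given as a description without a test, and only the 6 other genes were tested.

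The 18 arrays (Affymetrix Mouse Gene 1.0 ST) came from 2 experiments, each with 3 groups of 3 independent biological replicates treated for 24 h. In the AGN193109 experiment, cells received vehicle (DMSO and ethanol, each at 0.1%), 1 µM AGN193109, or 1 µM AGN193109 with 0.2 µM tRA. AGN193109 is an antagonist of all retinoic acid receptors (RARs), and tRA is all-trans retinoic acid, their natural ligand. In the DEAB experiment, cells received vehicle, 25 µM DEAB, or 25 µM DEAB with 0.01 µM tRA, and DEAB inhibits the enzymes that make tRA from retinaldehyde. All groups were this 1 cell line in culture, which models principal cells. Array medians were 7.23 to 7.33 with AGN193109 and its controls but 7.48 to 7.51 in the DEAB experiment, so groups were compared within an experiment only. Krt7, Krt8, Krt18, Krt19, Cdh1 and Epcam, which mark epithelium, had lowest values from 11.1 (Epcam) to 13.4 (Krt8) over the 18 arrays. Aqp2, the vasopressin-regulated water channel of principal cells, lay at 7.6 to 8.3, near the array medians. Of the other collecting duct genes read, Aqp3 (6.7 to 7.2), Avpr2 (6.2 to 7.1) and Elf5 (6.2 to 6.7) lay below the medians. So did Aqp4 (5.8 to 6.2), Scnn1b (5.7 to 6.0) and Scnn1g (5.4 to 5.9). Scnn1a (7.0 to 8.1) and Gata3 (7.2 to 8.1) lay near them, and Hsd11b2 (8.0 to 9.2) above. Levels and differences below are on the log2 scale of the Robust Multichip Average (RMA), a fold change is 2 raised to a difference, and a level is not set against that of another gene, since probes differ in brightness.

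Chemokines are small secreted proteins that draw leukocytes along a gradient, held in place by heparan sulfate. Ppbp encodes platelet basic protein, a precursor stored in platelet granules. Proteases trim it to forms that attract neutrophils through the receptor Cxcr2. Cxcl1, Cxcl2, Cxcl3 and Cxcl5 are also neutrophil attractants that act through Cxcr2, and epithelium makes them in response to NF-kappaB. Cxcl15 (lungkine) is a neutrophil attractant best known from lung epithelium. Pf4 is the other chemokine of platelet granules, and it lacks the motif by which the neutrophil attractants engage Cxcr2. RARs bind DNA with retinoid X receptors at response elements, typically direct repeats of a 6-base half-site.

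The 7 genes span 147 kb (GRCm38.p6). Ppbp lies at chr5:90768518-90770063, with Cxcl5 (chr5:90759298-90761625) before it and Pf4 (chr5:90772435-90773383) 2.4 kb after it. Cxcl3 (chr5:90786101-90788093) and Cxcl15 (chr5:90794534-90803067) follow. Cxcl1 (chr5:90891245-90893121) and Cxcl2 (chr5:90903899-90905938) lie beyond a gap of 88.2 kb. RefSeq promoter sequences were found for 6 of the 7 genes, all on the plus strand, and Cxcl5 has no entry. Printed here are the 250 bases before the start of Ppbp, of Pf4 as its closest neighbour, and of Cxcl1 and Cxcl2 as neutrophil attractants of epithelium. Capitals mark retinoid half-sites (AGGTCA or AGTTCA or GGGTCA or GGTTCA on either strand) and, in Cxcl1 and Cxcl2, a match to an NF-kappaB motif. They cover chr5:90768268-90768517, chr5:90772185-90772434, chr5:90890995-90891244 and chr5:90903649-90903898.
Ppbp: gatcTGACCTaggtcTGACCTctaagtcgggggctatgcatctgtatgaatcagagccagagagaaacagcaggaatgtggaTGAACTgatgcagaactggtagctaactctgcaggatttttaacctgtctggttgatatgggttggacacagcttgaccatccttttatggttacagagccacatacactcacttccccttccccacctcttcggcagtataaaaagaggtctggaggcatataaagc
Pf4: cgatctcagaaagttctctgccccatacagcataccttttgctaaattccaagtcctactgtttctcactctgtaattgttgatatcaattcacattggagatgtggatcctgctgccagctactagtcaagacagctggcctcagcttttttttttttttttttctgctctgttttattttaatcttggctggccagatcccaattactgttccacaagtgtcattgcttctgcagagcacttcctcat
Cxcl1: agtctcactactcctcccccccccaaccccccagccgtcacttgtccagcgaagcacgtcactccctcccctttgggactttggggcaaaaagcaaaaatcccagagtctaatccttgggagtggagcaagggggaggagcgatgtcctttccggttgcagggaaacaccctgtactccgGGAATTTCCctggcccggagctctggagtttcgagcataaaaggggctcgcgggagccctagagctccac
Cxcl2: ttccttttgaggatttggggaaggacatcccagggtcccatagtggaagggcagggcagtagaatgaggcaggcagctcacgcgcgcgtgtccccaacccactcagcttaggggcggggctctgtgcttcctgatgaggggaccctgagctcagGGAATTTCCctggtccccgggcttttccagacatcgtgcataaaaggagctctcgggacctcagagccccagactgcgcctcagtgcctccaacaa

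The Ppbp window held 3 half-sites, and those farthest from the start formed a direct repeat with a spacing of 5 bases, the DR5 arrangement that RARs are known to bind. On the minus strand it reads AGGTCAgacctAGGTCA, at chr5:90768272-90768288, from 246 to 230 bases before the start. No other member's window held a direct repeat spaced by 1, 2 or 5 bases. Of the 32851 promoters in the RefSeq table, cut to the same 250 bases, 29 (0.0883%) held such a DR5, 54 (0.164%) a repeat spaced by 1 and 57 (0.174%) a repeat spaced by 2. A single half-site was common, at 38.6% of promoters, and occurred once in the Cxcl15 window and not in those of Pf4, Cxcl1, Cxcl2 and Cxcl3. The NF-kappaB motif GGAATTTCC, searched on both strands, occurred once each in the windows of Cxcl1, Cxcl2 and Cxcl3, from 62 to 96 bases before the start, not in those of Ppbp, Pf4 and Cxcl15, and in 0.286% of all promoters. The motifs were chosen with these sequences in view. A match describes the letters, and binding was not measured.

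Ppbp transcript was lower with either inhibitor and higher again with tRA. In the AGN193109 experiment its level was 10.41, 10.68 and 10.91 with vehicle. It was 7.44, 7.03 and 7.78 with AGN193109, and 9.70, 10.25 and 10.20 with AGN193109 and tRA. The 3 groups did not overlap, with AGN193109 far below the others. The mean was 7.42 with AGN193109 against 10.67 with vehicle, a difference of -3.25 (standard error 0.21, n = 3 arrays per group), or 9.49-fold. With tRA it was higher than with AGN193109 alone by 2.63 (standard error 0.21), or 6.20-fold. Against vehicle the difference was -0.61, or 65.3% of the vehicle level. The return with tRA came to 81.1% of the log2 difference made by AGN193109, and to 76.1% to 88.2% within single replicate numbers.

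In the DEAB experiment Ppbp was at 11.58, 11.06 and 11.01 with vehicle. The levels were 8.89, 8.45 and 8.46 with DEAB, and 12.51, 12.04 and 11.76 with DEAB and tRA. Again no groups overlapped, but here the arrays with tRA lay above vehicle. The DEAB mean differed from vehicle by -2.62 (standard error 0.22), or 6.15-fold, and with tRA the level was higher than with DEAB alone by 3.51 (standard error 0.22), or 11.4-fold. DEAB with tRA thus exceeded vehicle by 0.89 (standard error 0.22), or 1.85-fold, and the return came to 134%. The tRA doses differed between the experiments, so these returns are given side by side and are not compared. Among all tested clusters, the Ppbp difference ranked 1 in size for AGN193109 and for DEAB against vehicle, 1 for AGN193109+tRA against AGN193109 and 2 for DEAB+tRA against DEAB, which restates how it was picked. The group accounted for 96.8% and 97.0% of the spread of Ppbp over the 9 arrays of each experiment (sum of squares), and replicate number for 1.71% and 2.85%.

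**Figure D1:**
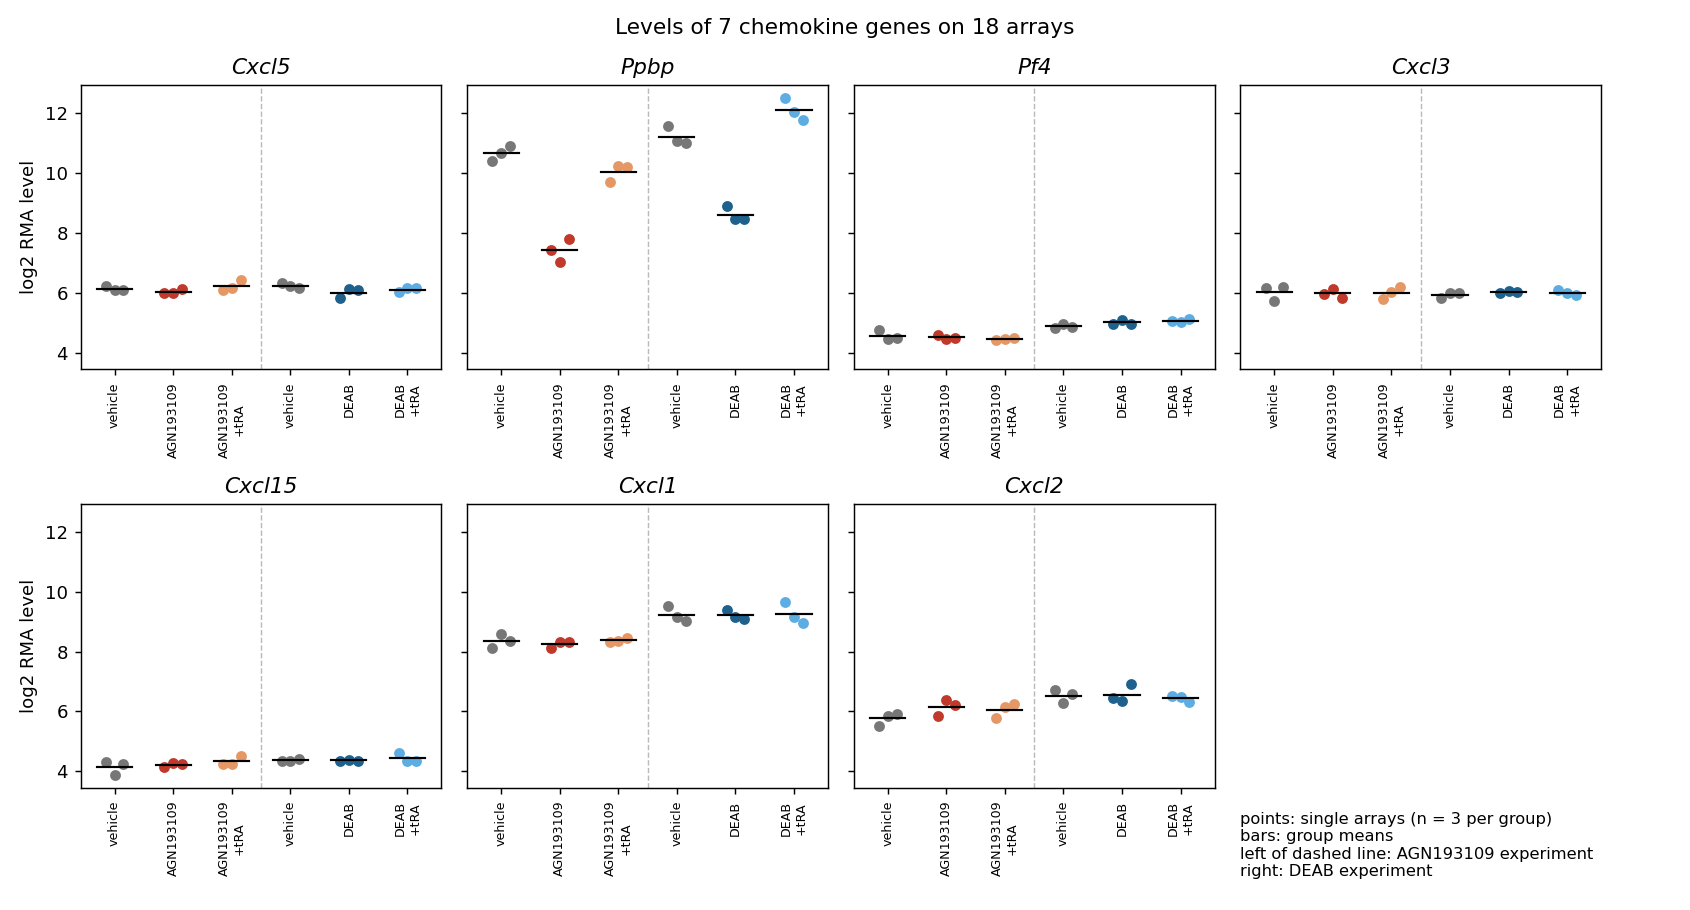
Levels of the 7 genes (log2 RMA, y axis) in each of the 6 groups (x axis). Points are single arrays, bars are means of 3 arrays, and the dashed line parts the AGN193109 experiment from the DEAB experiment. Ppbp lies near 7 to 9 with either inhibitor alone and between 9.70 and 12.51 in the other groups, while the other 6 genes stay within narrow bands.

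None of the 6 other chemokine genes passed the test in any of the 6 comparisons (limma with the Benjamini-Hochberg adjustment over all 23410 clusters, called under 0.05). Their 36 differences ranged up to 0.38 in size, with a median size of 0.08. Over all of them the 95% intervals reached down to -0.48 (71.9% of the compared level) and up to 0.76 (1.70-fold). A p that misses the threshold does not show that a gene was unaffected. Each interval covers a single difference, and the bounds are not joint over the 36. For a single difference they give the sizes that remain possible on the RMA scale. All come from a fit with no block on replicate number, in which 3 of the 36 had an unadjusted p under 0.05. With the block the same 3 had such a p, as did Cxcl2 for AGN193109 and for AGN193109+tRA, each against vehicle. The groups did not overlap in 3 of the 36. Over all clusters, the share with an unadjusted p under 0.05 in the fit without the block was 3.30% for AGN193109 against vehicle. It was 2.14% for AGN193109+tRA against AGN193109 and 1.79% for AGN193109+tRA against vehicle. For DEAB against vehicle, DEAB+tRA against DEAB and DEAB+tRA against vehicle it was 4.05%, 6.39% and 5.99%.

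Calls were rare in the whole table, which these counts must be read against. Called clusters made up 0.0683% of the table for AGN193109 against vehicle, 0.0214% for AGN193109+tRA against AGN193109 and 0% for AGN193109+tRA against vehicle. For DEAB against vehicle, DEAB+tRA against DEAB and DEAB+tRA against vehicle the shares were 0.0342%, 0.325% and 0%. With replicate number as a block the shares were 0.457%, 0.0812% and 0.00427% in the AGN193109 experiment, and 0.303%, 1.5% and 0.0214% in the DEAB experiment, again with none of the 6 genes called. Clusters whose compared groups did not overlap, in either direction, made up 6.02%, 4.15% and 3.87% of the table in the AGN193109 experiment, in the same order, and 6.89%, 9.21% and 8.07% in the DEAB experiment. Of the 6 genes, none in the AGN193109 experiment, 1 for DEAB against vehicle, none for DEAB+tRA against DEAB and 2 for DEAB+tRA against vehicle had groups without overlap.

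**Figure D2:**
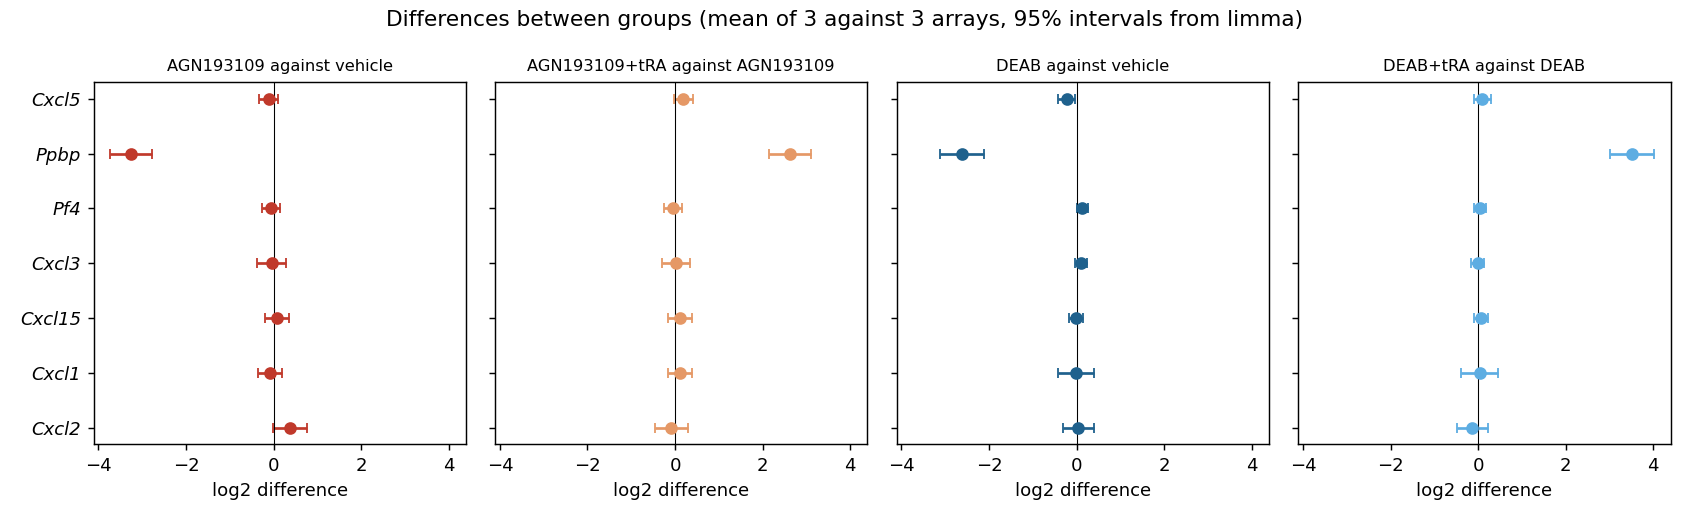
Differences in log2 level (x axis) of the 7 genes (y axis, in chromosomal order) between groups of 3 arrays, with 95% intervals from limma, for each inhibitor against vehicle and for inhibitor with tRA against inhibitor alone. Ppbp lies at -3.25, 2.63, -2.62 and 3.51, and the other genes lie within 0.38 of 0.

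Pf4, which starts 3.9 kb from Ppbp and shares its storage in platelets, showed no such pattern. With vehicle its level was 4.75, 4.44 and 4.50 in the AGN193109 experiment. With AGN193109 it was 4.59, 4.44 and 4.49, and with AGN193109 and tRA 4.42, 4.46 and 4.49. These groups overlapped, and AGN193109 against vehicle gave -0.06 (95% interval -0.26 to 0.15, limma adjusted p = 1). In the DEAB experiment Pf4 lay at 4.83, 4.97 and 4.84 with vehicle, 4.97, 5.10 and 4.97 with DEAB, and 5.05, 5.02 and 5.11 with DEAB and tRA. DEAB with tRA was above vehicle on all 3 arrays by 0.18 (95% interval 0.05 to 0.31), with an unadjusted p of 0.013 and an adjusted p of 0.819 from limma. DEAB against vehicle gave 0.13 (95% interval 0.0004 to 0.27, limma adjusted p = 1), opposite in sign to Ppbp.

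Cxcl5, the gene before Ppbp, differed most after Cxcl2 and in the same direction as Ppbp, without passing the test. In the DEAB experiment it was at 6.33, 6.22 and 6.16 with vehicle. It was at 5.81, 6.13 and 6.08 with DEAB, and at 6.01, 6.15 and 6.15 with DEAB and tRA. Every DEAB array, and every array with DEAB and tRA, lay below every vehicle array. The DEAB difference was -0.23 (95% interval -0.43 to -0.03), with an unadjusted p of 0.0302 and an adjusted p of 1 from limma. Replicate 1 carried most of it, at -0.52 against -0.09 and -0.08 in replicates 2 and 3. Adding tRA gave 0.10 (95% interval -0.10 to 0.30, limma adjusted p = 0.909). With AGN193109 the Cxcl5 difference was -0.11 (95% interval -0.32 to 0.11), and with tRA against AGN193109 alone 0.18 (95% interval -0.03 to 0.40, limma adjusted p = 1 for both), and the groups of that experiment overlapped.

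Cxcl2 was the member with the largest difference other than Ppbp, and it went the opposite way. With vehicle in the AGN193109 experiment its level was 5.52, 5.85 and 5.93. It was 5.84, 6.38 and 6.22 with AGN193109, and 5.78, 6.16 and 6.25 with AGN193109 and tRA. The groups overlapped, but within each replicate number AGN193109 was above vehicle, by 0.31, 0.53 and 0.29. Without the block, the mean difference was 0.38 (95% interval -0.01 to 0.76, unadjusted p = 0.0529, limma adjusted p = 1). The block on replicate number lowered its standard error from 0.17 to 0.07. It gave an unadjusted p of 0.00091 and an adjusted p of 0.113 in limma, still not a call. With tRA the level was not brought back, at -0.08 against AGN193109 alone (95% interval -0.47 to 0.30) and 0.29 against vehicle. For the latter the block gave an unadjusted p of 0.0041 and an adjusted p of 0.569 in limma. In the DEAB experiment Cxcl2 lay between 6.29 and 6.90 on all arrays, with groups that overlapped and differences of 0.04, -0.13 and -0.09.

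Cxcl1 followed replicate number more than treatment, most clearly in the DEAB experiment. In the DEAB experiment its level was 9.51, 9.17 and 9.02 with vehicle, 9.40, 9.17 and 9.09 with DEAB, and 9.65, 9.15 and 8.96 with DEAB and tRA. Replicate 1 was highest in all 3 groups, and replicate number accounted for 90.6% of the spread over the 9 arrays against 0.354% for group. Ppbp too was highest in replicate 1 of all 3 groups of that experiment. DEAB against vehicle gave -0.01 for Cxcl1 (95% interval -0.43 to 0.40, limma adjusted p = 1) and tRA against DEAB 0.03. In the AGN193109 experiment Cxcl1 ranged from 8.11 to 8.60 over the 9 arrays, and AGN193109 against vehicle gave -0.09 (95% interval -0.36 to 0.18). Replicate number accounted for 51.2% of the spread there, group for 11.6% and the rest for 37.2%.

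No groups parted for Cxcl3 or Cxcl15. Cxcl3 ranged from 5.73 to 6.20 over the arrays of the AGN193109 experiment and from 5.82 to 6.10 over those of the DEAB experiment. Its group means spanned 0.04 and 0.09. Cxcl15 ranged from 3.87 to 4.52 and from 4.33 to 4.60, with group means spanning 0.19 and 0.07. All groups of both genes overlapped. Signal was low for most of these genes. Only Ppbp and Cxcl1 passed a filter that left out clusters whose mean over the experiment was under the 30th percentile (6.48 and 6.63), so 5 of the 7 genes, Cxcl5, Pf4, Cxcl3, Cxcl15 and Cxcl2, lay under it in both experiments. A cluster that dim may hold mostly background, and a change in scarce transcript could go unseen there.

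The effects of both inhibitors were set against each other over the 18 arrays, as AGN193109 minus its vehicle less DEAB minus its vehicle. Among the 6 other genes none passed this test in limma, nor did any cluster of the table (0%), of which 539 had an unadjusted p under 0.05. The values lay between -0.19 for Pf4 (95% interval -0.42 to 0.04) and 0.34 for Cxcl2 (95% interval -0.18 to 0.85), with adjusted p of 1 from limma. For Ppbp the value was -0.63 (95% interval -1.32 to 0.06), given as a description.

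Beyond the chemokines, 14 other genes within 1 Mb of Ppbp had a cluster with their symbol alone. None of them was called in any of the 6 comparisons, with or without the block. On the side of Cxcl5 the adjacent genes are Rassf6, a RAS association domain protein, and Albfm1, of the albumin family. Rassf6 differed by 0.02 (standard error 0.07) with AGN193109 and by -0.02 (standard error 0.06) with DEAB, and Albfm1 by -0.16 (standard error 0.12) and 0.01 (standard error 0.05). Beyond Cxcl2 lie Mthfd2l, a mitochondrial folate enzyme, and Epgn, a ligand of the EGF receptor. Mthfd2l differed by 0.20 (standard error 0.10) and 0.15 (standard error 0.07), and Epgn by 0.16 (standard error 0.11) and 0.19 (standard error 0.05).

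Read from the brightest cluster of each gene, Epgn and Btc were those of the 14 with an unadjusted p under 0.05 in some comparison. Btc, another EGF receptor ligand, which starts 588.7 kb from Ppbp, was at 0.28 (standard error 0.10) with DEAB against vehicle and at -0.43 (standard error 0.10, limma adjusted p = 0.243) with tRA against DEAB. That sign is the reverse of the Ppbp pattern. Adamts3, a procollagen peptidase, is covered by 16 clusters, which differed by -0.27 to 0.28 over the 6 comparisons with none called. Of these 96 values, 10 had an unadjusted p under 0.05, beside 1.79% to 6.39% of all clusters in a single comparison.

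Within 5 Mb, a wider window chosen after the values were seen, 95 genes other than Ppbp were measured. For DEAB+tRA against DEAB, 2 of them were called in the fit without the block, beside 0.325% of all clusters. Csn3, the kappa casein of milk, lies toward the Cxcl5 side at chr5:87925579-87932550 and rose with tRA by 1.36 (standard error 0.21, limma adjusted p = 0.0437). Slc4a4, a sodium bicarbonate cotransporter, spans chr5:88793858-89239656 and rose by 0.73 (standard error 0.09, limma adjusted p = 0.0114). With the block, Csn3 and Slc4a4 were also called as lower with AGN193109 and with DEAB, by -1.54 and -1.12 for Csn3 and by -0.74 and -0.45 for Slc4a4. Cxcl10, described among the ligands elsewhere, was the other gene of this window called with the block, for DEAB against vehicle and for DEAB+tRA against DEAB. With the block, 2 of the 95 were called for AGN193109 against vehicle, 3 for DEAB against vehicle and 3 for DEAB+tRA against DEAB. The shares over all clusters were 0.457%, 0.303% and 1.5%. Between the called genes and Ppbp lie others that were not called.

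**Figure D3:**
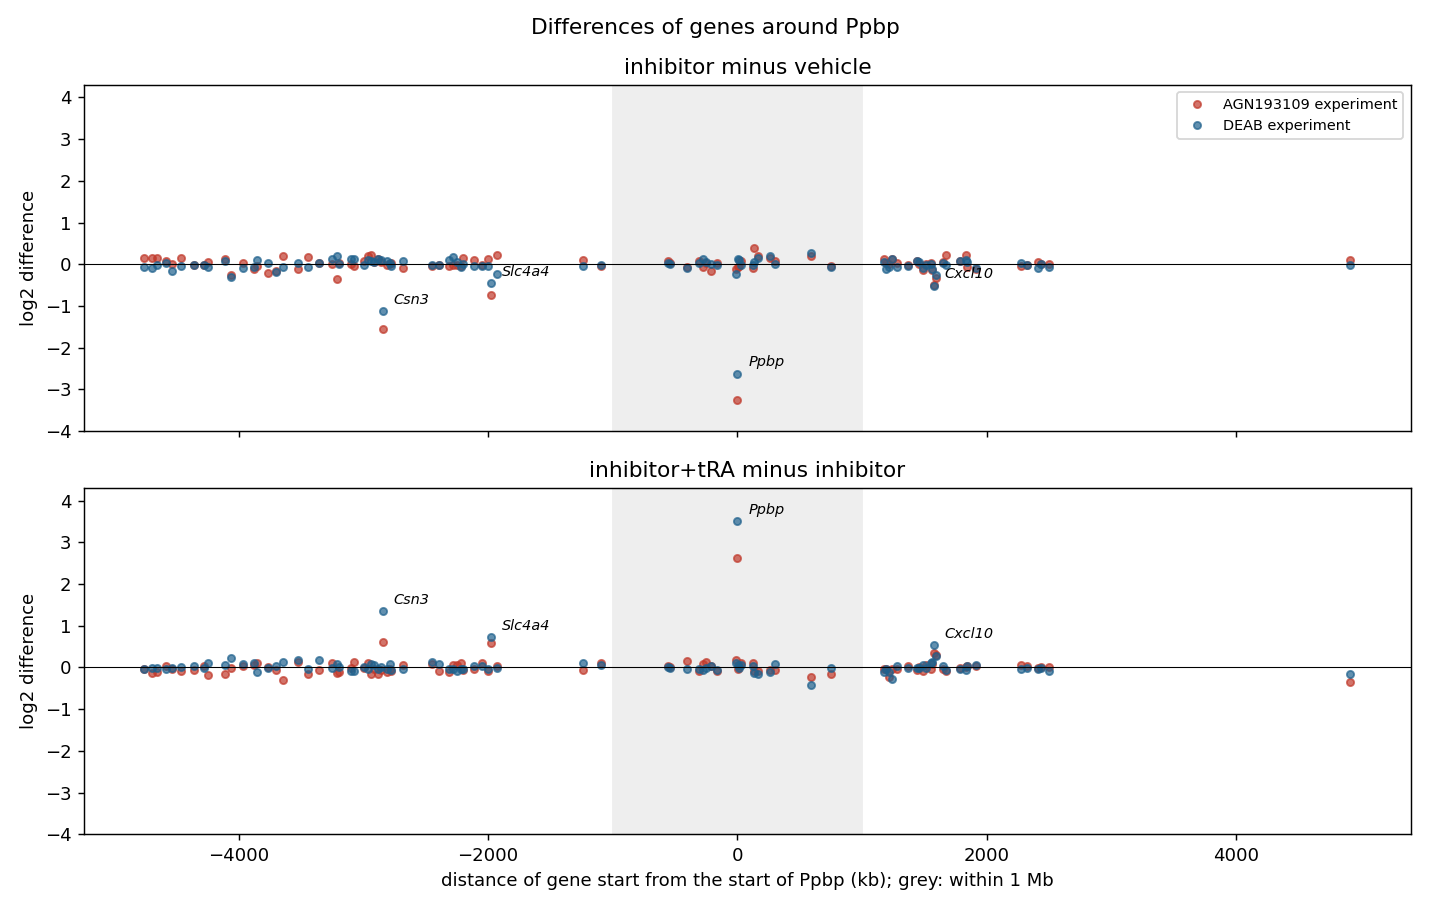
Differences in log2 level (y axis) of the 96 measured genes within 5 Mb of Ppbp, by the distance of their start from that of Ppbp in kb (x axis), for inhibitor against vehicle (top) and inhibitor with tRA against inhibitor (bottom), each in both experiments. Ppbp stands at -3.25 and -2.62 above and at 2.63 and 3.51 below, Csn3, Slc4a4 and Cxcl10 show smaller differences of the same signs, and the other genes within 1 Mb lie between -0.43 and 0.38.

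Other genes of the chemokine system were read from lists of ligands, receptors, matrix and proteases. No gene of any list was called in any of the 6 comparisons in the fit without the block. Over all clusters the share with an unadjusted p under 0.05 was 4.05%, 6.39% and 5.99% in the comparisons of the DEAB experiment. Of the 8 CXC ligands elsewhere in the genome, 1 had such a p in each comparison of that experiment and 0 in those of the AGN193109 experiment. For DEAB against vehicle and DEAB+tRA against DEAB it was Cxcl10, an interferon-induced attractant of T cells that starts 1578.1 kb from Ppbp on the same chromosome, and its level ranged from 11.3 to 13.2. Cxcl10 differed by -0.51 (standard error 0.14) with DEAB and by 0.54 (standard error 0.14) with tRA against DEAB, with adjusted p of 0.838 and 0.289 from limma. With the block both differences were called, at limma adjusted p of 0.0035 and 0.00144, beside 0.303% and 1.5% of all clusters. With AGN193109 the value was -0.49 (standard error 0.35) and was not called either way. Cxcl11, which shares the receptor of Cxcl10, was at -0.33 with AGN193109 and -0.26 with DEAB, and Cxcl17, of mucosal epithelium, at 0.06 and 0.04. Cxcl17 was at 0.14 (standard error 0.06) with tRA against DEAB and at 0.18 (standard error 0.06, unadjusted p = 0.0202, limma adjusted p = 0.819) with DEAB+tRA against vehicle. The list's median was 0.03 for AGN193109 and -0.02 for DEAB against vehicle, beside 0.02 and -0.0001 for all clusters.

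All 10 CXC and atypical chemokine receptors were measured and none was called, with or without the block, while 2 had an unadjusted p under 0.05 for DEAB against vehicle, 2 for DEAB+tRA against vehicle and 0 in the other comparisons, beside 4.05% and 5.99% of all clusters. Cxcr2, the receptor of Ppbp and its neighbours, lay at 4.2 to 5.0 over all 18 arrays and differed by -0.02 with AGN193109 and -0.02 with DEAB. Cxcr1 differed by -0.20 and 0.23, and Cxcr5, of B cells, by -0.22 and -0.15. Of 22 CC, C and CX3C ligands 21 were measured. With the block 1 was called, Cx3cl1, as lower with tRA against DEAB, beside 1.5% of all clusters. The lowest p in that list belonged to Ccl19, Xcl1 and Ccl3. Ccl19 was at 0.27 with DEAB, Xcl1 at 0.25 with tRA against DEAB and Ccl3 at -0.28 with AGN193109, and Ccl19 has near-identical copies that may share its probes.

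Bcl3, a nuclear partner of NF-kappaB, came nearest to a call among 30 measured genes of the NF-kappaB pathway and its cytokine targets. It was at -0.44 (standard error 0.11) with AGN193109, -0.24 (standard error 0.07) with DEAB and 0.33 (standard error 0.07) with tRA against DEAB. With the block only the first was called, as the only call in this list, beside 0.457% of all clusters. In the same list Rel was at -0.12 with tRA against DEAB and Vcam1 at -0.19 with DEAB. Of 18 measured heparan sulfate proteoglycan cores and chain enzymes, 1 was called with the block, beside 1.5% of all clusters. This was Gpc1, as lower with tRA against DEAB (-0.37, standard error 0.09). Agrn was at -0.34 with AGN193109 and Gpc4 at 0.27 with tRA against DEAB. None of the 11 proteases that trim Ppbp or its relatives was called, with 1 at an unadjusted p under 0.05 for AGN193109+tRA against AGN193109 and 1 for DEAB+tRA against DEAB. Over all clusters the shares for these comparisons were 2.14% and 6.39%. Plau and its receptor Plaur were at 0.34 with tRA against AGN193109 and at -0.35 with tRA against DEAB, and Ctsg, the neutrophil protease that cuts platelet basic protein, was at -0.30 with DEAB.

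Markers of cells in which Ppbp is best known were read beside these results. Of 16 megakaryocyte and platelet markers 11 were measured, and their mean level lay between 7.23 and 7.42 over the arrays of the AGN193109 experiment and between 7.49 and 7.62 over those of the DEAB experiment, with overlapping ranges in vehicle and inhibitor groups. None was called with or without the block. An unadjusted p under 0.05 was seen for 1 in 1 comparison, DEAB+tRA against vehicle, beside 5.99% of all clusters. The lowest p were those of Gata1, at 0.21 with DEAB+tRA against vehicle, Treml1, at 0.14, and F2r, at 0.18 with tRA against AGN193109. Of the defining platelet glycoproteins, Itga2b lay at 7.8 to 8.1, Gp9 at 6.6 to 7.1 and Gp5 at 6.3 to 7.3 over all 18 arrays, and whether platelet RNA has a part in the Ppbp level was not tested. Of 12 leukocyte markers 11 were measured. Their mean was 6.55 to 6.88 and 6.70 to 6.87 in the AGN193109 and DEAB experiments. Ly6g, a neutrophil surface marker, was at -0.81 (standard error 0.19) with AGN193109. It alone of the 11 was called with the block, beside 0.457% of all clusters, and the list reached 0.27 in that comparison. S100a8 (4.8 to 5.2), S100a9 (6.1 to 6.5), Itgam (5.5 to 6.0), Mpo (5.8 to 6.8) and Ptprc (5.9 to 6.2) lay below the array medians. Cd68 (8.6 to 9.6) and Csf1r (7.6 to 10.4) lay above them. Mpo was at 0.28 and Cd79a at 0.32 with DEAB+tRA against vehicle. Among 16 collecting duct markers none was called, and 4 had an unadjusted p under 0.05 for AGN193109 against vehicle, where 3.30% of all clusters did. In that experiment 2 passed it for AGN193109+tRA against AGN193109 and 1 for AGN193109+tRA against vehicle, beside 2.14% and 1.79% of all clusters. None did in the DEAB experiment. Krt7 was at -0.32 with AGN193109, Hsd11b2 at 0.31 and Scnn1a at -0.18.

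Of 12 genes known to respond to retinoic acid 10 were measured. Dhrs3, which reduces retinaldehyde, was at -3.10 (standard error 0.51) with AGN193109 and at 3.35 (standard error 0.58) with tRA against DEAB, with adjusted p of 0.118 and 0.0726 from limma. With the block Dhrs3, Stra6 (a retinol-binding protein receptor) and Tgm2 (a transglutaminase) were called as lower with AGN193109 and higher with tRA against DEAB, and Tgm2 as lower with DEAB. The shares of all clusters called with the block in these comparisons were 0.457%, 1.5% and 0.303%. Other genes of the list had the opposite sign, up to 0.22 with AGN193109 and down to -0.23 with tRA against DEAB. The list's median was -0.11 for AGN193109 and 0.19 for DEAB+tRA against DEAB, beside 0.02 and 0.01 for all clusters.

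Over all arrays, with the differences between groups included, the genes whose pattern was most like that of Ppbp were not its chemokine neighbours. Likeness was the Pearson correlation over the 18 arrays, after each experiment's mean was subtracted, among 19937 other genes. The points share groups and cultures, so it is a description. The highest were Sprr1a (0.96), a protein of the cornified envelope, Plekhs1 (0.96), with a pleckstrin homology domain, and Zfp36l1 (0.96), which promotes decay of AU-rich mRNA. Smad3 (0.96) transduces TGF-beta signals, Npr3 (0.95) clears natriuretic peptides and Itga2 (0.95) is a collagen-binding integrin chain. Ebf1 (0.94), a transcription factor, and Slc4a4 (0.93) followed.

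Sizes differed among these genes. For each unit of Ppbp, Sprr1a changed by 0.92 and Plekhs1 by 0.56 on the log2 scale, while Zfp36l1 changed by 0.19 and Smad3 by 0.20. The lowest correlations were those of Cdkn2b (-0.90), an inhibitor of cyclin-dependent kinases, and Lmna (-0.90), a nuclear lamin. Of these 8 most similar genes Slc4a4 alone lies on chromosome 5, and none of their RefSeq promoters held a direct repeat spaced by 1, 2 or 5 bases in the same 250-base window. The chemokine neighbours had lower correlations, at 0.47 for Cxcl5, 0.27 for Cxcl1, 0.10 for Cxcl15, 0.01 for Pf4, -0.01 for Cxcl3 and -0.33 for Cxcl2. Among the 19937 genes Cxcl5 ranked 625, Cxcl1 2591, Cxcl15 6409, Pf4 9073, Cxcl3 9633 and Cxcl2 17513. Within groups the order differed, with a correlation to Ppbp of 0.69 for Cxcl1. The other neighbours lay between -0.24 (Pf4) and 0.33 (Cxcl2) within groups. Of the 8 genes only Ebf1 (0.79) lay above Cxcl1 there. Sprr1a was at 0.54, Smad3 at 0.51, Npr3 at 0.41, Zfp36l1 at 0.39, Slc4a4 at 0.26, Plekhs1 at 0.04 and Itga2 at -0.08.

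**Figure D4:**
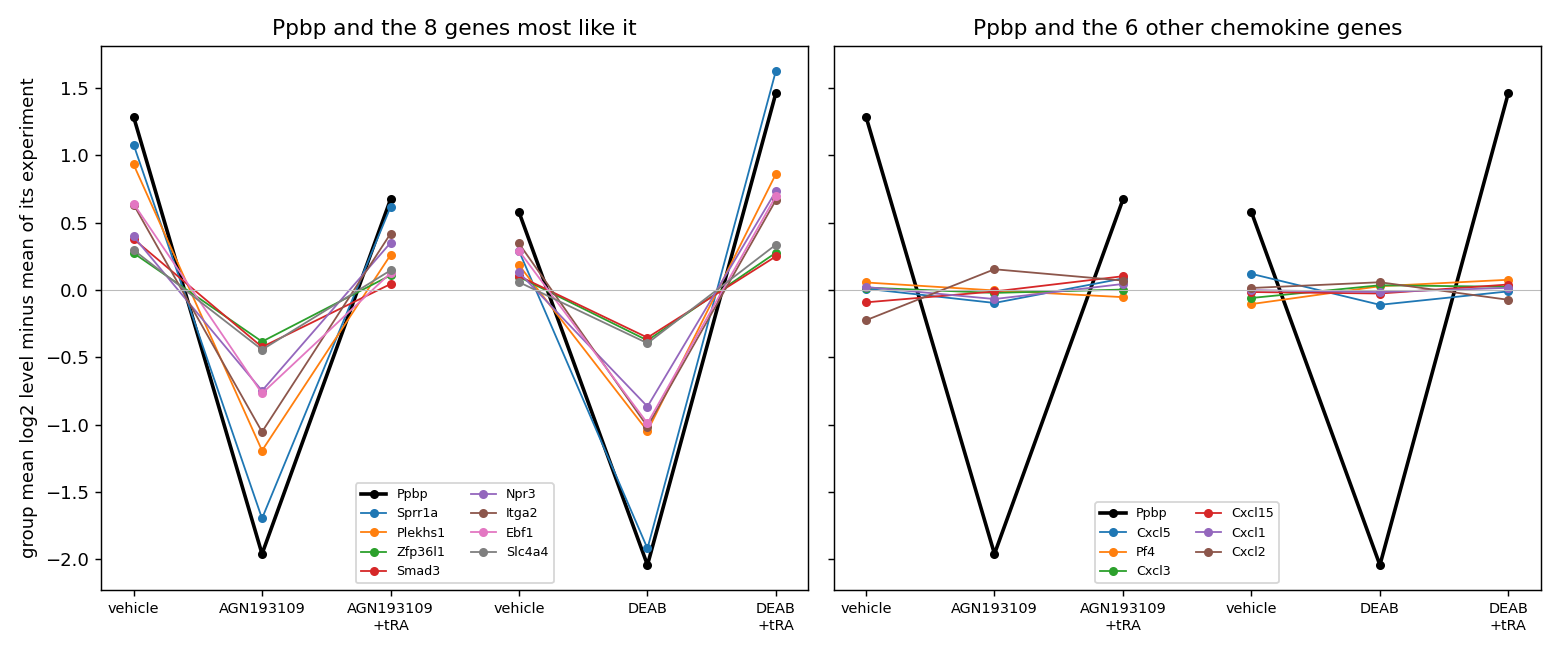
Group means of log2 level after subtraction of each experiment's mean (y axis) in the 6 groups (x axis, 3 arrays each), for Ppbp with the 8 genes most like it (left) and with the 6 other chemokine genes (right). The 8 genes follow the V shape of Ppbp in both experiments with slopes of 0.19 to 0.92, whereas the chemokine genes stay close to 0.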

How the data were processed

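The 18 arrays measured RNA of mIMCD-3 cells. The authors normalized them with RMA in Affymetrix Expression Console (version not given in the sources used here), and deposited log2 values for 35556 transcript clusters. Each experiment was read by itself. Arrays were grouped by their titles, and vehicle arrays went to the experiment whose style of short name they carry. Some labels spell the antagonist AGN193110 or AGN193099, and the titles' spelling was used. Depth does not apply to arrays, and the number of arrays limits the precision.

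Groups were compared with limma 3.58.1 in R 4.3.3, as group means over the 9 arrays of an experiment, with empirical Bayes variances and Benjamini-Hochberg adjusted p over 23410 clusters with a symbol, called under 0.05. The effects of AGN193109 and DEAB were compared by an interaction over 18 arrays. Replicate numbers were taken to pair the arrays. Residuals of the same number in different groups correlated at 0.198 to 0.645 (AGN193109) and 0.179 to 0.614 (DEAB). Those of different numbers correlated at -0.575 to 0.205 and -0.511 to 0.312, so the ranges overlapped at their ends. A second fit therefore blocked on replicate number. The code was tested on simulated data. Members, gene lists and tests were chosen with earlier results of these data known, Ppbp for its values. Named were all members, the genes within 1 Mb of Ppbp with an unadjusted p under 0.05 or next to the chemokines, up to 3 genes per list with the lowest p, and the 8 most and 2 least like Ppbp. Genes called with the block and markers read for their level were named as well. Genes with several clusters were read from the brightest. Of the listed genes, those without a cluster carrying their symbol alone were not analysed here. Promoters and positions are RefSeq's (GRCm38.p6). Figures used matplotlib 3.10.9 in Python 3.11.15.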

Additional observations from a re-analysis of the deposited data

Results flagged for a closer look

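Replicates of the experiments moved in opposite directions in 2 results. For Ppbp, inhibitor with tRA was below vehicle in every replicate of the AGN193109 experiment (mean -0.615, from -0.71 to -0.43) and above it in every replicate of the DEAB experiment (mean 0.8852, from 0.74 to 0.98). The tRA doses differed, at 0.2 and 0.01 µM, and this difference was not tested. For Pf4, inhibitor against vehicle was below 0 in every replicate with AGN193109 (mean -0.0591, from -0.16 to -0.01) and above it with DEAB (mean 0.1328, from 0.129 to 0.137). The direction with AGN193109 rests on 1 array, since without vehicle replicate 1 it was 0.0343. The interaction over 18 arrays was not called (-0.19, standard error 0.11, limma adjusted p = 1).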

How the results depend on the processing

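The alternatives were the replicate block, quantile normalization again, array medians subtracted, removal of dim clusters, inclusion of clusters that lack a symbol, a fit of just the 6 arrays at issue, a joint fit of all 18, limma's trend with robust variances, and each array left out in turn. In all of them the Ppbp differences kept their sign and moved by less than 1 SD between replicates (0.31 and 0.32), in 102 of 102 values. Many of these values could not move, for Ppbp or any other gene. With equal groups, a mean difference is unchanged by the block, the choice of clusters, the 6-array and 18-array fits or the variance setting. Leaving out an array of the group not compared does not change it either. The Ppbp difference of -3.25 for AGN193109 against vehicle with the block is such a value. Ppbp was also picked for these differences, so the count is a description. The number of other members called was 0 under every alternative. Their lowest adjusted p was 0.113 over 582 values, for Cxcl2 with the block, and 35 values changed sign, all of differences of at most 0.13 in size. Leaving out arrays gave Ppbp -3.43 to -3.05 for AGN193109 and -2.76 to -2.44 for DEAB against vehicle. With dim clusters left out, 5 members were not tested. Of the 8 genes most like Ppbp, 4 were shared with the 8 by Spearman's rho, 2 with the 8 from the AGN193109 arrays alone and 5 with those from the DEAB arrays alone, so which genes head this order depends on the measure. The block raised calls over the whole table in every comparison. For AGN193109 against vehicle, AGN193109+tRA against AGN193109 and AGN193109+tRA against vehicle they went from 16 to 107, 5 to 19 and 0 to 1. For the DEAB comparisons in the same order they went from 8 to 71, 76 to 351 and 0 to 5. Low signal limits what can be seen for the 5 dim members.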
